A study of Mus musculus with 10 samples.

Results

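The 10 genes examined here mark the 2 ends of the liver lobule, and their levels were compared across liver biopsies of mice on a western diet. The 10 genes were chosen by name, for their known place in the lobule, with earlier results of these data known. Glul, Cyp2e1, Cyp1a2, Oat and Slc1a2 are pericentral markers, and Hal, Sds, Gls2, Cyp2f2 and Cdh1 are periportal markers. The 10 were all among the 10913 genes of the table, and all 10 passed the filter on low counts in each comparison. The question was whether biopsies differ in the balance of the 2 zones. Transcriptomes came from C57BL/6 wild-type mice, and each biopsy was taken after 12 weeks of western diet, before any drug was given. Of 10 biopsies, 3 were from mice that later received vehicle, 4 from mice later classed as non-responders to obeticholic acid (OCA), an agonist of the bile acid receptor FXR, and 3 from mice later classed as OCA responders. All groups therefore shared strain, diet and time, and the later class rested on the histological activity score at the end of treatment.

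Hepatocytes along the lobule differ by position. Those next to the portal vein meet oxygen-rich, nutrient-rich blood first and carry out amino acid breakdown, urea synthesis and gluconeogenesis, whereas those around the central vein carry out glutamine synthesis and much of the cytochrome P450 metabolism. Wnt signals from endothelial cells of the central vein, acting through beta-catenin, are known to hold the pericentral programme in place, and periportal genes are expressed where that signal is low. A biopsy is a mixture of both zones, so its transcript levels reflect how much of each zone it holds as well as how strongly the genes are expressed, and in bulk RNA fewer cells of a zone and less RNA per cell cannot be told apart.

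The biopsies had 40432530 to 76529328 counts over the listed genes. Rn45s, the ribosomal RNA precursor, took 3.70% to 6.87% of the counts in vehicle biopsies and 10.97% to 25.7% in the 7 biopsies of later OCA mice, so that its share cannot be told apart from that grouping. Levels are given as CPM, counts relative to the library total, scaled by the TMM method over the 10 biopsies, and each value is a single biopsy, written in the order of the replicate number. The 8 hepatocyte markers checked, which include Alb, Ttr and Apoa1, were all present and summed to 5661 to 7909 CPM.

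The 10 markers covered a wide span of abundance. Per transcript length, in the deposited FPKM, the median over 10 biopsies was highest for Cyp2e1 at 625, followed by Glul at 447, Gls2 at 176, Hal at 142, Oat at 117, Sds at 64.6, Cyp2f2 at 61.7, Slc1a2 at 35.5, Cyp1a2 at 13.9 and Cdh1 at 3.13. The ranges of neighbours overlapped for Cyp2e1 and Glul, for Gls2 and Hal, for Hal and Oat, and for Sds and Cyp2f2. Cyp2e1 lay above Glul in 9 of 10 biopsies, Gls2 above Hal in 9, Hal above Oat in 6, and Sds above Cyp2f2 in 6. The other neighbours did not overlap. In the whole table Cyp2e1 ranked 64 and Cdh1 ranked 6300 of 10913 by median FPKM.

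The start-site sequences of 4 markers are shown because they include the 2 members that hold a TCF/LEF word, the sequence read by the transcription factors that beta-catenin acts through, beside the pericentral and the periportal P450 of the set. Windows of 300 bases, from 250 before to 50 after the transcription start, were taken from RefSeq on build GRCm38.p6, in which 7 of the 10 markers matched (Glul, Cyp2e1, Cyp1a2, Oat, Slc1a2, Hal and Cyp2f2). Capitals mark the word CTTTGAT on either strand (ATCAAAG on the reverse strand), and all other bases are in lower case. Slc1a2 lies at chr2:102706188-102706487 on the plus strand, Hal at chr10:93488518-93488817 on the plus strand, Cyp2e1 at chr7:140763569-140763868 on the plus strand and Cyp2f2 at chr7:27119705-27120004 on the plus strand.
Slc1a2: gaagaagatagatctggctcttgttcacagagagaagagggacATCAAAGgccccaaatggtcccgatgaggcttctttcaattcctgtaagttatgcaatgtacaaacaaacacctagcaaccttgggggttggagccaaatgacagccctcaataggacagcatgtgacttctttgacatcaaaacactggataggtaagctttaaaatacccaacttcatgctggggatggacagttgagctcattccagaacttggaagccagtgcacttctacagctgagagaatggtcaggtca
Hal: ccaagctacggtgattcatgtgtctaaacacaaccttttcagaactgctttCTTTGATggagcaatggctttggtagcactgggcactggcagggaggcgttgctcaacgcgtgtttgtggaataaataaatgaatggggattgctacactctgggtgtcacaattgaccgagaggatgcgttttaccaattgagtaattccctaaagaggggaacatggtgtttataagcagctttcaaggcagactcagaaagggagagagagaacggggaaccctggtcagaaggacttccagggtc
Cyp2e1: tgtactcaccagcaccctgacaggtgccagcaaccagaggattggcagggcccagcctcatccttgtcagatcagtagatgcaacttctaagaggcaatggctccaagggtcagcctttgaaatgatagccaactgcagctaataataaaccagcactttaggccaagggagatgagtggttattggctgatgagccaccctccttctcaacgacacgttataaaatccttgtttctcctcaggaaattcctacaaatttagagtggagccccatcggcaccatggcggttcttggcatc
Cyp2f2: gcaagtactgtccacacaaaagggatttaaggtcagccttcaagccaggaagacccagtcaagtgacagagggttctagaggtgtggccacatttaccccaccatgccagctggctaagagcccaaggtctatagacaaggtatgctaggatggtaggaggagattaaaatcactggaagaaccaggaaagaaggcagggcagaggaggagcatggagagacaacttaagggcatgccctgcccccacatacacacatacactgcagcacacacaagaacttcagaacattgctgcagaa
The word stood 207 bases before the start in Slc1a2, on the reverse strand, and 199 bases before the start in Hal, on the given strand. The pericentral glutamate transporter and the periportal histidine-degrading enzyme thus both hold it. It was present in 2 of the 7 markers matched and in 3.73% of all 32851 promoters of that length. The words TTGCGTG (aryl hydrocarbon receptor), TGACGTC (cyclic AMP response element) and CAAAGTCCA (HNF4A), also searched on both strands, were in none of the 7 windows and in 1.16%, 3.21% and 0.475% of all promoters. Such words overlap no other searched word in these windows, and a match is only a description of the letters. The RefSeq start of Slc1a2 lies inside the gene as GENCODE M21 draws it (chr2:102658659-102790784), so this window is at an internal start of that model.

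Of the pericentral markers, those of glutamine and glutamate handling varied least. Glul, glutamine synthetase, which fixes the last ammonia before blood leaves the lobule, was at 1133, 1549 and 1388 CPM in vehicle, 1397, 1369, 1345 and 1226 CPM in non-responders, and 1465, 1405 and 1320 CPM in responders. The groups overlapped, and vehicle replicate 1 was the lowest of all 10. Slc1a2, a glutamate transporter of the same cells, was at 287, 319 and 394 CPM in vehicle, 283, 335, 349 and 366 CPM in non-responders, and 446, 372 and 362 CPM in responders. Here the responders lay in the upper part of the range, with overlap. Oat, ornithine aminotransferase, which makes glutamate from ornithine, was at 305, 201 and 204 CPM in vehicle, 224, 269, 289 and 262 CPM in non-responders, and 237, 385 and 364 CPM in responders. It was highest in responder replicates 2 and 3 and, unlike the other pericentral markers, was not low in vehicle replicate 1.

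The P450 enzymes of the pericentral set varied more. Cyp2e1, which oxidizes ethanol and other small molecules, was at 405, 1296 and 1354 CPM in vehicle, 1144, 1195, 1095 and 1574 CPM in non-responders, and 1021, 897 and 832 CPM in responders. Vehicle replicate 1 stood far below the other 9 biopsies, and the 3 responders lay below all 4 non-responders. Cyp1a2, a target of the aryl hydrocarbon receptor that metabolizes caffeine and aromatic amines, was at 14.4, 26.7 and 32.1 CPM in vehicle, 35.7, 35.2, 23.2 and 23.4 CPM in non-responders, and 52.8, 26.8 and 29.4 CPM in responders. Vehicle replicate 1 was again the lowest, and responder replicate 1 was the highest.

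Among the periportal markers, Hal and Gls2, enzymes of amino acid breakdown, were low in the same pair of biopsies. Hal, histidine ammonia-lyase, was at 551, 447 and 409 CPM in vehicle, 355, 439, 300 and 208 CPM in non-responders, and 257, 472 and 475 CPM in responders. Gls2, the liver glutaminase that releases ammonia from glutamine, was at 456, 409 and 478 CPM in vehicle, 464, 442, 455 and 236 CPM in non-responders, and 272, 454 and 424 CPM in responders. Non-responder replicate 4 and responder replicate 1 were the lowest biopsies for both genes, and the other 8 lay at 300 CPM or more for Hal and 409 CPM or more for Gls2. Sds, serine dehydratase, which feeds serine into pyruvate, was at 89.4, 44.5 and 50.9 CPM in vehicle, 76.9, 83.9, 95.7 and 30.5 CPM in non-responders, and 60.2, 88.7 and 94.0 CPM in responders. It was lowest in non-responder replicate 4, and vehicle replicates 2 and 3 came next.

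The remaining periportal markers followed other patterns. Cyp2f2, a periportal P450 that oxidizes naphthalene, was at 124, 138 and 141 CPM in vehicle, 112, 111, 103 and 127 CPM in non-responders, and 129, 108 and 117 CPM in responders. It varied little, and the groups overlapped. Cdh1, E-cadherin, the junction protein of periportal hepatocytes and of bile duct cells, was at 27.9, 13.4 and 13.3 CPM in vehicle, 18.8, 13.6, 13.8 and 15.3 CPM in non-responders, and 15.02, 11.5 and 8.25 CPM in responders. Vehicle replicate 1 was the highest and responder replicate 3 the lowest. Of the 8 bile duct markers used, 4 were in the table (Sox9, Krt19, Spp1 and Krt23). Their summed level was 43.4 to 53.4 CPM in vehicle, 26.5 to 54.01 CPM in non-responders and 27.2 to 32.3 CPM in responders, with Krt19 at 0.171 CPM in responder replicates 1 and 2. The part of bile duct RNA in the Cdh1 values was not tested.

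**Figure D1:**
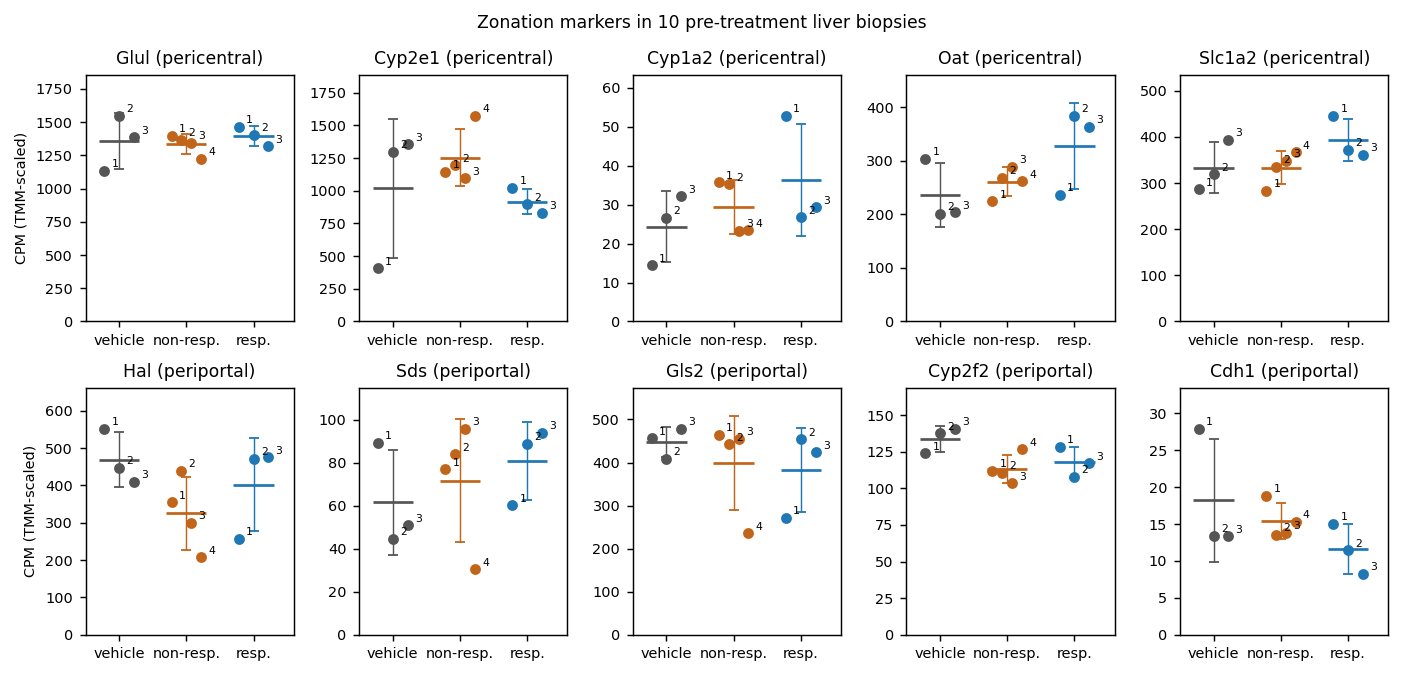
CPM (linear axes from 0) of the 5 pericentral markers (upper row) and the 5 periportal markers (lower row) in vehicle, non-responder and responder biopsies. Points are biopsies with their replicate number, horizontal lines are group means and bars are ± 1 SD. Cyp2e1 was at 405 CPM in vehicle replicate 1 against 832 to 1574 CPM in the other 9 biopsies.

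The spread between biopsies of a group separated the markers more clearly than the groups did. On the log2 scale the within-group SD was 0.12 for Cyp2f2, 0.14 for Glul and 0.19 for Slc1a2, smaller than the 0.28 that was the median over 6131 genes with a mean of at least 10 CPM. It was 0.29 for Oat, 0.38 for Gls2, 0.42 for Hal and for Cdh1, 0.49 for Cyp1a2, 0.56 for Cyp2e1 and 0.60 for Sds. For Sds 94.2% of those genes had a smaller spread, and for Cyp2f2 3.46%. Each zone thus held genes that varied little and genes that varied much. Counting error was at most 0.08 on the same scale, reached for Cdh1, and such intervals cover counting error only.

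Some marker exons are shared with other genes, and the use of strand in counting was not given in the sources used here. Of the 1694 exon bases of Sds, 360 lie in exons of Plbd2 on the opposite strand, which had 599 to 3181 counts of its own, or 16.8% to 43.5% of the sum of both. Of the 3323 exon bases of Glul, 93 lie in Mir8114 on the same strand, whose row held 1 to 4803 counts and up to 5.93% of the sum with Glul. Gls2 shares 97 bases with Spryd4 on the opposite strand, with at most 1.83% of the sum. Sds also shares 141 bases with Gm15690, and Cyp2f2 shares 274 of its 2025 exon bases with Gm15883, both on the opposite strand. Glul and Slc1a2 share 116 and 189 bases with Teddm2 and Gm13872 on the opposite strand. No counts were at hand for these other genes. Reads in the shared stretches may be split. The level of Sds is the least certain of the 10 for that reason, and that of Cyp2f2 may be affected too.

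Responders and non-responders were compared first, since this contrast asks whether zonation before treatment differed with the later response. Cyp2e1 was 916 ± 96.0 CPM (SD, n = 3) in responders and 1252 ± 219 CPM (SD, n = 4) in non-responders. The log2 fold change was -0.45 ± 0.17 (SE), with an unadjusted p of 0.0230 and an adjusted p of 0.286 by edgeR's quasi-likelihood test with Benjamini-Hochberg adjustment over 10826 genes. Under 18 alternatives of the edgeR fit, DESeq2 and limma included, it was -0.66 to -0.32, with adjusted p of 0.151 to 0.554. No gene passed at 0.05 (0% of those tested), so none of the 10 markers did. At an unadjusted p under 0.05, 13.9% of all genes and 1 of 10 markers were below the threshold in the edgeR fit, and the groups did not overlap for 14.3% of all genes and for 1 of 10 markers, Cyp2e1 in both cases. DESeq2 called 268 genes and limma on the deposited log2 values called 0, and neither called a marker.

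The other pericentral markers had positive log2 fold changes between responders and non-responders, none of which passed. They were 0.33 ± 0.19 (SE) for Oat, 0.30 ± 0.28 for Cyp1a2, 0.24 ± 0.15 for Slc1a2 and 0.07 ± 0.13 for Glul. Without responder replicate 1 the value for Cyp1a2 was -0.06. The periportal markers spread to both sides, at 0.31 ± 0.28 (SE) for Hal, 0.18 ± 0.34 for Sds, 0.06 ± 0.14 for Cyp2f2, -0.06 ± 0.26 for Gls2 and -0.41 ± 0.25 for Cdh1. Without responder replicate 1 the value for Gls2 was 0.14, and without non-responder replicate 4 that for Sds was -0.08. The median was 0.24 over the 5 pericentral markers and 0.06 over the 5 periportal markers, beside -0.01 over all genes.

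The later OCA mice were next set against the vehicle mice, which asks whether the arms differed before any drug was given. All 5 pericentral markers had positive log2 fold changes, with a median of 0.12, and 4 of 5 periportal markers had negative ones, with a median of -0.22, beside 0.00 over all genes. None passed in edgeR's quasi-likelihood test. The values were 0.41 ± 0.29 (SE) for Cyp1a2, 0.30 ± 0.21 for Oat, 0.12 ± 0.31 for Cyp2e1, 0.11 ± 0.16 for Slc1a2 and 0.01 ± 0.14 for Glul. For the periportal genes they were -0.40 ± 0.28 (SE) for Cdh1, -0.39 ± 0.24 for Hal, -0.22 ± 0.13 for Cyp2f2, -0.19 ± 0.21 for Gls2 and 0.30 ± 0.31 for Sds. Without vehicle replicate 1 the values for Cyp2e1, Glul and Cdh1 turned to -0.26, -0.11 and 0.04. Of all genes tested 1.19% passed the adjusted threshold, 19.2% had an unadjusted p under 0.05 and 10.3% did not overlap, against 0, 0 and 0 of the 10 markers. DESeq2 called no marker either.

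Cyp2f2 was the marker whose call depended on the scale. In the deposited FPKM it was at 73.4, 81.8 and 81.9 in vehicle, 61.4, 63.3, 53.4 and 62.1 in non-responders, and 58.0, 52.3 and 50.5 in responders. On that scale every vehicle biopsy lay above every later OCA biopsy, which was not so for CPM. The share of all genes without overlap was not counted in FPKM. Limma on log2(FPKM + 1) without quantile normalization gave Cyp2f2 a log2 fold change of -0.46 with an adjusted p of 0.0480 for later OCA mice against vehicle, and -0.55 with an adjusted p of 0.0297 for responders against vehicle. Over all settings tried with edgeR, DESeq2 and limma its adjusted p was 0.0480 to 0.721 in the first comparison and 0.0297 to 0.997 in the second. Those 2 fits called 390 of 10913 genes, 76 higher and 314 lower, in the first comparison and 1993 in the second. On the unnormalized scale the median of all genes was itself shifted, by -0.17 and -0.24. With quantile-normalized log2 values limma called no marker in any of the 4 comparisons.

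Responders and non-responders were also each set against vehicle. These comparisons share the 3 vehicle biopsies with each other and with the one above. For responders the largest values were -0.67 ± 0.36 (SE) for Cdh1, 0.57 ± 0.35 for Cyp1a2, 0.46 ± 0.25 for Oat and 0.38 ± 0.30 for Sds, and the other 6 lay between -0.23 and 0.23. For non-responders the value farthest from 0 was that of Hal, 325 ± 97.2 CPM (SD, n = 4) against 469 ± 73.3 CPM (SD, n = 3), at -0.52 ± 0.24 (SE), with an unadjusted p of 0.0580 and an adjusted p of 0.357 by edgeR's quasi-likelihood test. The other 9 lay between -0.24 and 0.31. None of the 10 markers passed in either comparison, had an unadjusted p under 0.05 in the edgeR fit, or lacked overlap. Over all genes these shares were 4.52%, 26.0% and 32.7% for responders against vehicle, and 0.0462%, 14.6% and 16.4% for non-responders against vehicle.

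**Figure D2:**
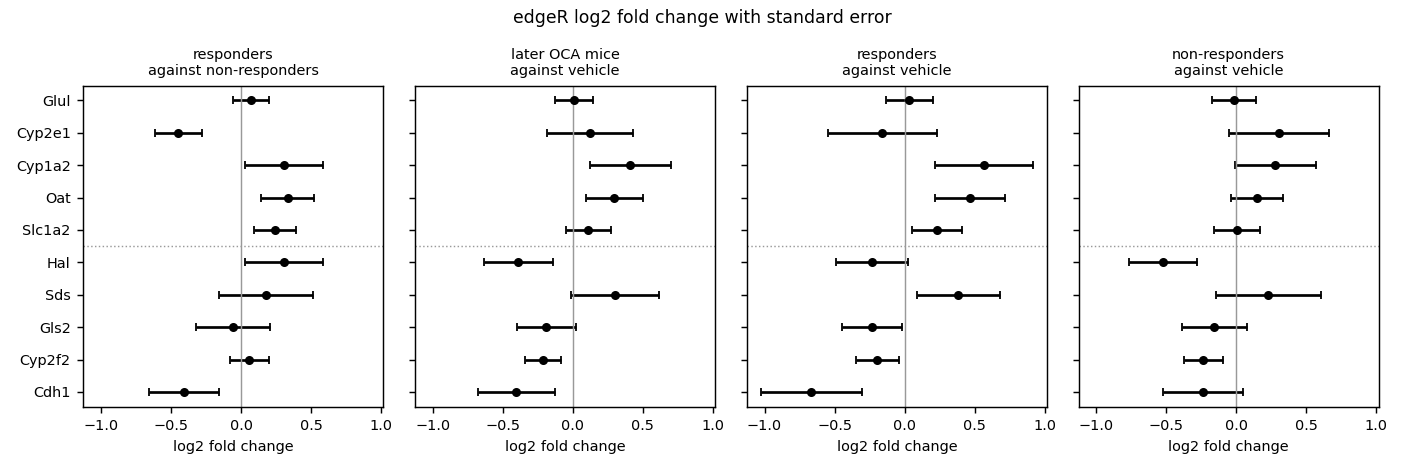
Log2 fold change (horizontal axis, edgeR) of each marker in 4 comparisons, with bars of ± 1 SE. The dotted line separates pericentral markers (above) from periportal markers (below). Cyp2e1 in responders against non-responders, at -0.45, lay farther from 0 relative to its SE than any other marker in that comparison.

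The balance of the zones was then read biopsy by biopsy, as the mean log2 CPM of the 5 pericentral markers minus that of the 5 periportal markers, centred on the mean of the 10 biopsies. It was -0.96, 0.02 and 0.06 in vehicle, -0.13, 0.00, -0.04 and 0.57 in non-responders, and 0.46, -0.01 and 0.03 in responders. In this reading 7 biopsies lay within a narrow band around 0, from all 3 groups, and 3 stood away from it, 1 in each group. Vehicle replicate 1 was shifted to the periportal side, and non-responder replicate 4 and responder replicate 1 to the pericentral side. Counting error of the balance was 0.0120 to 0.0192 per biopsy.

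The 3 biopsies outside the band reached their positions through different genes. In vehicle replicate 1 the pericentral mean was 0.53 below and the periportal mean 0.43 above the average biopsy, with Cyp2e1 at -1.34, Cyp1a2 at -0.98, Cdh1 at 0.95 and Hal at 0.55 relative to their own means. Non-responder replicate 4 had a pericentral mean near the average, at 0.05, and a periportal mean of -0.52, with Sds at -1.14, Hal at -0.86 and Gls2 at -0.76. In responder replicate 1 the pericentral mean was 0.24, with Cyp1a2 at 0.89, and the periportal mean was -0.22, with Gls2 and Hal both at -0.55. When each marker in turn was left out, the balance was -1.14 to -0.76 in vehicle replicate 1, 0.41 to 0.72 in non-responder replicate 4 and 0.29 to 0.56 in responder replicate 1. Without Hal, Sds and Gls2, a choice made after seeing the data, the values were -1.03, -0.03 and 0.16, so that the shift of non-responder replicate 4 rested on these 3 enzymes. The other biopsies moved as well and then ran from -0.15 to 0.46. Responder replicates 3 and 2 were the highest of all, at 0.46 and 0.32, so the narrow band did not hold in this reading.

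In vehicle replicate 1, where Cyp2e1 was low, the 8 hepatocyte markers summed to 7369 CPM, inside the range of the other biopsies, while Alb, albumin, one of the 8, was at 884 CPM there and at 955 to 1893 CPM in the other 9. The part of hepatocyte content in the Cyp2e1 level was not tested. Its Rn45s share, 6.58%, was inside that of the other vehicle biopsies. Non-responder replicate 4 and responder replicate 1 had Rn45s shares of 23.5% and 22.8%, while responder replicate 3, with a share of 25.7%, had a balance of 0.03. The part of the Rn45s share in the balance was not tested.

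**Figure D3:**
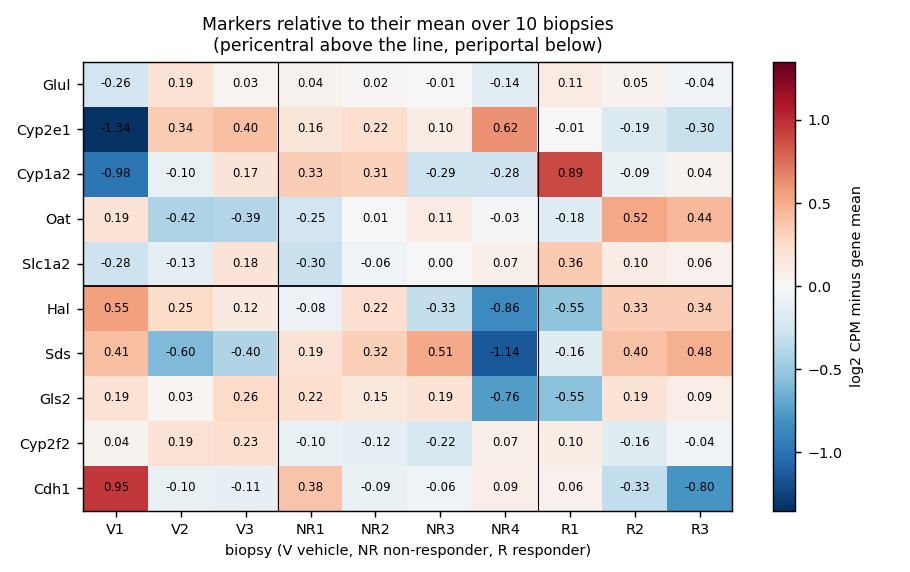
Log2 CPM of each marker minus its mean over the 10 biopsies, pericentral genes above the horizontal line and periportal genes below, with the value printed in each cell. Vehicle replicate 1 (V1) combines Cyp2e1 at -1.34 with Cdh1 at 0.95, and the low values of Hal, Sds and Gls2 stand in non-responder replicate 4 (NR4).

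Between groups the balance differed by less than its spread or by little more. Vehicle had a mean of -0.29 ± 0.58 (SD, n = 3), non-responders one of 0.10 ± 0.31 (SD, n = 4) and responders one of 0.16 ± 0.26 (SD, n = 3), with a pooled within-group SD of 0.40. The difference between responders and non-responders was 0.06. Later OCA mice lay 0.42 above vehicle, responders 0.45 and non-responders 0.39. Without vehicle replicate 1 these 3 differences were 0.08, 0.12 and 0.06, so that a single biopsy carried most of each. No test was made of the balance, because the markers were chosen with results of these data known.

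Other genes of known zonation were read the same way, 22 pericentral and 21 periportal, none of them among the 10 markers. Their balance was -0.58, 0.49 and 0.72 in vehicle, 0.11, 0.24, -0.24 and -0.18 in non-responders, and -0.32, 0.03 and -0.28 in responders. Vehicle replicate 1 was again the lowest of all biopsies, with a pericentral mean of -0.31 and a periportal mean of 0.27. Non-responder replicate 4 and responder replicate 1, high by the markers, were below 0 by these genes. No floor on abundance was set here. The periportal Ass1, for example, ran from 0.107 to 7.26 CPM, with 4.07 CPM in non-responder replicate 4 and 6.69 CPM in responder replicate 1. The part of such low genes in this balance was not tested. By this balance vehicle had a mean of 0.21 ± 0.69 (SD, n = 3), non-responders -0.01 ± 0.23 (SD, n = 4) and responders -0.19 ± 0.19 (SD, n = 3). Later OCA mice thus lay 0.30 below vehicle by these genes, responders 0.40 below and non-responders 0.22 below, opposite in sign to the 10 markers.

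**Figure D4:**
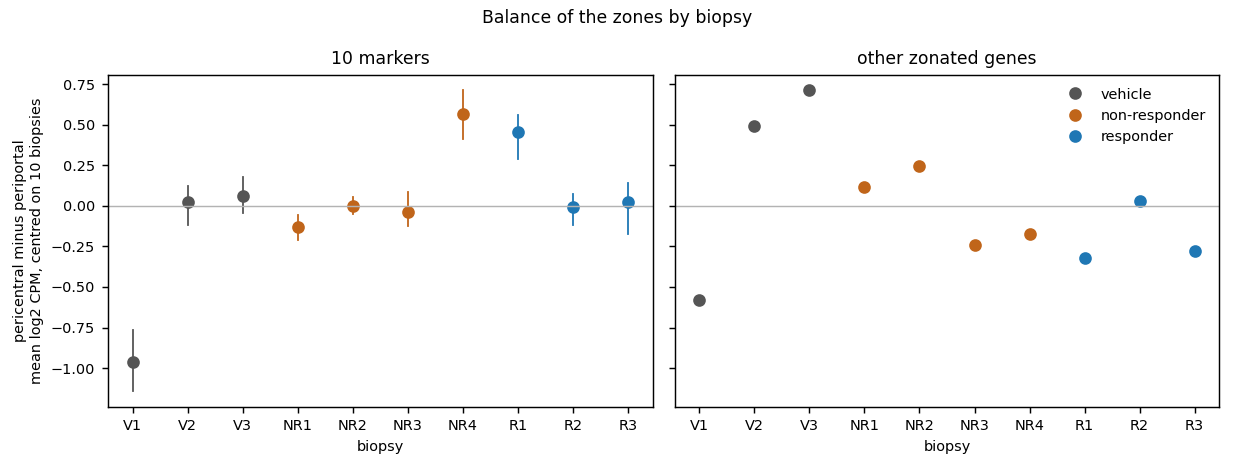
Balance of the zones (vertical axis, log2 units, centred) in each biopsy (V vehicle, NR non-responder, R responder), for the 10 markers (left) and for 43 other zonated genes (right). Vertical lines on the left give the range when each marker is left out. V1 was the lowest biopsy in both panels (-0.96 and -0.58), while NR4 and R1 were the highest only on the left.

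In vehicle replicate 1, 8 of the 22 pericentral genes were at their lowest of all 10 biopsies and 3 at their highest, while 2 of the 21 periportal genes were at their lowest and 8 at their highest. Non-responder replicate 4 came close on the pericentral side, with 7 at their lowest and 4 at their highest. It also had 7 periportal genes at their lowest and 1 at its highest. The same counts over all genes were not made. Cyp7a1, the rate-limiting enzyme of classic bile acid synthesis and pericentral, was at 19.0 CPM in vehicle replicate 1 and at 112 to 660 CPM in the other 9 biopsies. Cyp2a5, a pericentral P450, was at 164 CPM against 354 to 989 CPM, and Por, the reductase that supplies electrons to P450 enzymes, at 35.4 CPM against 70.8 to 277 CPM. On the periportal side Gldc, of the glycine cleavage system, was at 177 CPM against 50.4 to 109 CPM. The glutathione transferases Gstm2 and Gstm3, listed as pericentral, went the other way, at 434 and 70.6 CPM there against 94.9 to 350 and 3.36 to 34.7 CPM. So did the periportal Alb, and Pigr, the receptor that carries immunoglobulin A into bile, which was at 211 CPM there against 285 to 588 CPM. These genes were picked after their values were seen, except Cyp7a1, Por, Gstm2, Alb, Pigr and Gldc.

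Over the 10 biopsies these lists followed the marker balance loosely. Of the 17 other pericentral genes with a mean of at least 10 CPM, 12 had a positive Pearson r with the balance, with a median of 0.27, a highest value of 0.72 for Slco1b2 and a lowest of -0.86 for Gstm3. Of 19 other periportal genes 6 were positive, with a median of -0.37, a lowest value of -0.92 for Gldc and a highest of 0.70 for Pigr. The median over all 6121 other genes was 0.04. The points share libraries and TMM scaling, and 3 biopsies hold most of the spread of the balance.

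The genes most like the balance were Mgll, the lipase that ends triglyceride breakdown (r = 0.95 over 10 biopsies), Tns2, a focal adhesion protein (0.94), Rrp7a, of ribosomal RNA processing (0.94), Smyd2, a lysine methyltransferase (0.94), and Acsm5, a medium-chain acyl-CoA synthetase (0.93). Mgll was at 17.6 CPM in vehicle replicate 1, at 51.7 and 43.02 CPM in non-responder replicate 4 and responder replicate 1, and between 29.3 and 36.8 CPM in the other 7. Those most unlike it were Cxadr, a junction protein (-0.93), Galt, of galactose metabolism (-0.93), Tm4sf4, a membrane protein (-0.92), Insig2, which retains the sterol sensor in the endoplasmic reticulum (-0.92), and Gldc (-0.92). Insig2 was at 497 CPM in vehicle replicate 1 and at 36.9 to 108 CPM in the other 9. Without vehicle replicate 1 and non-responder replicate 4, the pair farthest from the median, r was 0.71 to 0.79 for the first 5 genes and -0.77 to -0.64 for the others. Responder replicate 1, also away from the other biopsies in balance, was still included there. The genes were picked by r over these same biopsies, so these values are a description only.

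The markers of a zone did not rise and fall as a block. Over the 10 biopsies 45 pairs were compared. The median Pearson r was 0.34 among the 10 pericentral pairs, of which 7 were positive, -0.02 among the 10 periportal pairs, of which 4 were positive, and -0.26 among the 25 pairs between zones, of which 8 were positive. No pair passed after Benjamini-Hochberg adjustment over 45 pairs, and 5 had an unadjusted permutation p under 0.05 by Pearson's r.

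By Pearson's r the most positive and the most negative pair were both periportal, while by Spearman's rho they were both between zones. For Hal and Gls2 r was 0.80 (permutation p = 0.0130, adjusted 0.389) and Spearman's rho was 0.30 (permutation p = 0.404, adjusted 0.880). Without the 2 biopsies farthest from the median of Hal, r was -0.29, so the relation rests on those biopsies. For Sds and Cyp2f2 r was -0.71 (permutation p = 0.0202, adjusted 0.389) and rho was -0.73 (permutation p = 0.0198, adjusted 0.272). That relation stood at -0.82 without the 2 farthest biopsies of Sds, at -0.89 with values centred within groups and at -0.75 in the 7 later OCA biopsies. These genes are both classed as periportal, yet they moved in opposite directions. For Glul and Cyp1a2 r was 0.71 (permutation p = 0.0261, adjusted 0.389) and rho was 0.55 (permutation p = 0.105, adjusted 0.673), with r falling to 0.22 without the 2 farthest biopsies. Cyp2e1 and Sds, of opposite zones, had a rho of -0.78 (permutation p = 0.0112, adjusted 0.272) and an r of -0.62 (permutation p = 0.0573, adjusted 0.389). Oat and Sds, also of opposite zones, had a rho of 0.76 (permutation p = 0.0152, adjusted 0.272) and an r of 0.60 (permutation p = 0.0664, adjusted 0.389).

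**Figure D5:**
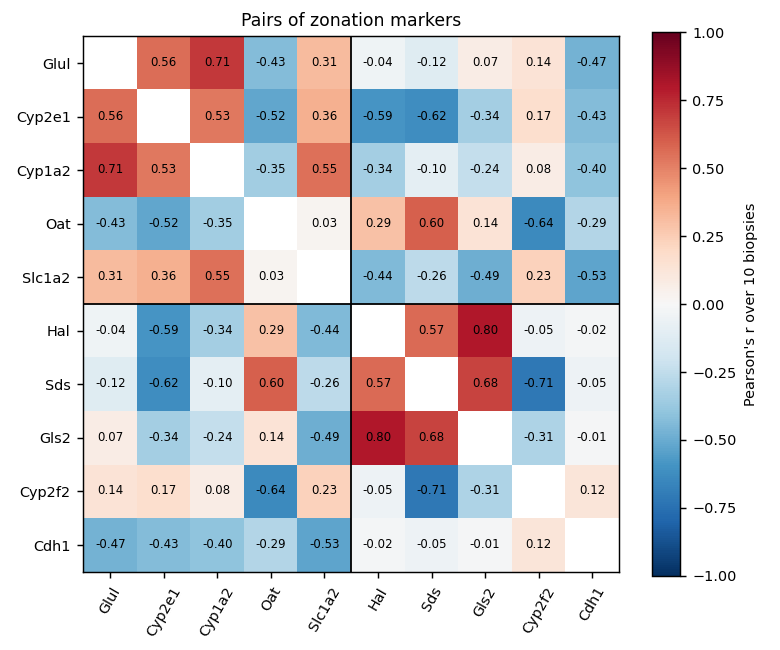
Pearson's r of log2 CPM over the 10 biopsies for each pair of markers, with pericentral markers before the solid lines and periportal markers after. Hal and Gls2 (0.80) are the most positive pair and Sds and Cyp2f2 (-0.71) the most negative.

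Genes that set or accompany zonation were read from the same fits. Of 22 Wnt and beta-catenin genes 20 were in the table, and none passed in responders against non-responders, where 14 were higher and 6 lower, 3 had an unadjusted p under 0.05 in the edgeR fit, beside 13.9% of all genes, and the median log2 fold change was 0.09 beside -0.01 over all genes. DESeq2 and limma on the deposited log2 values called none of them. Tbx3, a transcription factor and beta-catenin target, had -0.69 ± 0.28 (SE), Tcf7l2, the partner of beta-catenin on DNA, 0.42 ± 0.18, Ctnnb1, beta-catenin itself, -0.37 ± 0.16, and Notum, a secreted Wnt inhibitor, 0.37 ± 0.18. Against vehicle, later OCA mice had -0.66 ± 0.32 (SE) for Tbx3, 0.55 ± 0.20 for Tcf7l2, -0.66 ± 0.24 for Lrp5, a Wnt co-receptor, and -0.44 ± 0.15 for Lgr4, a receptor of R-spondins. None of the 20 passed there either, with 3 at an unadjusted p under 0.05 in the edgeR fit, beside 19.2% of all genes, and DESeq2 and limma called none. In responders against vehicle DESeq2 called Tbx3 and Tcf7l2, beside 1555 genes in all, while edgeR and limma called none of the 20.

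Of the aryl hydrocarbon receptor genes, which act upstream of Cyp1a2 or are induced beside it, 3 of the 7 used were in the table. In responders against non-responders all 3 had positive log2 fold changes and none passed, with 0.90 ± 0.34 (SE) for Ahr, the receptor, 0.40 ± 0.19 for its partner Arnt and 0.76 ± 0.45 for its target Tiparp. Ahr had an unadjusted p of 0.0261 and an adjusted p of 0.297 in the edgeR fit, at 5.12 and 2.75 CPM. Against vehicle the later OCA mice had values of -0.07, -0.10 and 0.35 for Ahr, Arnt and Tiparp, and none passed. DESeq2 and limma called none of the 3 in either comparison.

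Fasting induces several periportal enzymes, and genes of that response were therefore listed too. Pck1, G6pc and Tat stand both on this list and among the other periportal genes, so the lists are not separate. In responders against non-responders all 10 measured genes of 11 listed had positive log2 fold changes, with a median of 0.58. None passed in edgeR's test, where 5 had an unadjusted p under 0.05 beside 13.9% of all genes. Limma called none, and DESeq2 called Irs2, beside 268 genes in all. Ppargc1a, a coactivator of gluconeogenesis, had 1.97 ± 0.62 (SE), Igfbp1, an insulin-suppressed secreted protein, 1.15 ± 0.41, Irs2, an insulin receptor substrate, 0.89 ± 0.22, and Pck1, the gluconeogenic enzyme also listed as periportal, 0.67 ± 0.25. Ppargc1a was at 416, 76.4 and 95.6 CPM in vehicle, 85.0, 76.2, 317 and 74.2 CPM in non-responders, and 162, 704 and 752 CPM in responders. It was high in vehicle replicate 1, non-responder replicate 3 and responder replicates 2 and 3. Those 4 biopsies were also the highest for Sds, at 88.7 to 95.7 CPM, an overlap noticed after the values were seen and not tested.

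In edgeR's test, genes of these lists were called only in later OCA mice and in responders, each against vehicle. Gulo, a pericentral gene whose enzyme makes vitamin C in mice, had a mean of 6.14 CPM in vehicle and 14.8 CPM in later OCA mice. Its log2 fold change was 1.27 ± 0.23 (SE), with an adjusted p of 0.0336 by edgeR's quasi-likelihood test. Pigr, a periportal gene, had means of 269 and 505 CPM, with 0.91 ± 0.18 (SE) and an adjusted p of 0.0356 in that test. Creb3l3, a transcription factor of the fasting response, had means of 20.7 and 39.0 CPM, with 0.92 ± 0.17 (SE) and an adjusted p of 0.0336 in that test. In all 3 genes every later OCA biopsy was above every vehicle biopsy. The calls were 1 of 22 pericentral, 1 of 21 periportal and 1 of 10 fasting-response genes, beside 1.19% of all genes, and each of the 3 was still called in 4 of the 10 fits that left out a biopsy. DESeq2 and limma on the deposited log2 values called these 3 too. The other listed genes with the smallest p did not pass in edgeR's test, among them the pericentral Lect2 (-0.87 ± 0.23), Slco1b2 (0.63 ± 0.18) and Gstm2 (-0.82 ± 0.28) and the periportal Alb (0.72 ± 0.20), Ctsc (-0.80 ± 0.22) and Uroc1 (0.46 ± 0.19), nor did G6pc (0.92 ± 0.45), Igfbp1 (1.28 ± 0.71) and Pck1 (0.53 ± 0.33). Of these DESeq2 called Lect2, Slco1b2, Alb and Ctsc, and limma called Lect2. Over all genes DESeq2 called 666 and limma on the deposited log2 values 262 in this comparison. Of the 8 hepatocyte markers, the apolipoprotein Apoa2 (1.36 ± 0.26) and the secreted protease inhibitor Serpina1c (0.99 ± 0.20) were called higher in later OCA mice in edgeR's test. Their relation to the calls above was not tested.

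The medians of the other zonated genes in later OCA mice against vehicle were -0.20 over 22 pericentral and 0.02 over 21 periportal genes. In responders against vehicle the calls were Gulo (1.49 ± 0.25), Pigr (1.03 ± 0.19), Creb3l3 (1.00 ± 0.19) and the periportal urocanate hydratase Uroc1 (0.70 ± 0.15, adjusted p = 0.0438 by edgeR's test), the enzyme after Hal in histidine breakdown. Uroc1 was at 837, 840 and 815 CPM in responders and at 542, 453 and 529 CPM in vehicle, without overlap, while Hal overlapped between these groups. The calls were 1 of 22 pericentral and 2 of 21 periportal genes, beside 4.52% of all genes, and each of the 4 genes was still called in 1 of the 6 fits that left out a biopsy. DESeq2 and limma on the deposited log2 values called these 4 too. DESeq2, with 1555 genes called in all, added the pericentral Cyp3a11, Gstm3 and Lect2. In non-responders against vehicle DESeq2 called Gulo, Lect2, Alb, Pigr and Creb3l3, beside 382 genes in all, where edgeR and limma called none of these lists. Among cell type markers, edgeR's test called Spp1, osteopontin, 1 of 4 bile duct markers tested, lower (-1.08 ± 0.23), and Reln, reelin, 1 of 9 stellate cell markers, lower (-0.69 ± 0.16), and their relation to the other calls was not tested. The cell type markers named with these calls were picked after their values were seen. All calls against vehicle share the vehicle biopsies. The number of calls changed with the biopsy left out. Of all genes 129 were called in later OCA mice against vehicle, and 20, 1 and 1 without vehicle replicate 1, 2 or 3. The count was 154, 158, 9 and 130 without non-responder replicate 1, 2, 3 or 4, and 20 and 9 without responder replicate 2 or 3. Leaving out a biopsy also makes its group smaller, and the part of group size in these counts was not tested. In responders against vehicle the count was 488, and it was 848, 9 and 0 without vehicle replicate 1, 2 or 3 and 81, 15 and 3 without responder replicate 1, 2 or 3. In responders against non-responders none of the other zonated genes passed in edgeR's test, 6 of 43 had an unadjusted p under 0.05 beside 13.9% of all genes, and DESeq2 and limma called none. Those with the smallest p were Por (0.90 ± 0.26), Cyp7a1 (0.63 ± 0.34) and Gulo (0.44 ± 0.20) beside Ahr, and Uroc1 (0.48 ± 0.16), Tat (0.49 ± 0.19) and Etnppl (0.98 ± 0.40) beside Pck1.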

How the data were processed

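Liver RNA of 10 pre-treatment biopsies was sequenced as paired-end reads. Quality control (FastQC 0.11.7), trimming (Trimmomatic 0.38), alignment to mm10 (HISAT2 2.1.0) and assembly with StringTie were done by the authors, and neither the StringTie version nor the step from its output to whole counts was given in the sources used here. For each gene above 0 in every biopsy, the authors deposited a whole read count, an FPKM value and a log2 value, the last being FPKM + 1 on the log2 scale after quantile normalization. The deposited table also holds the authors' group means and SDs, signed folds and other score columns, and raw and adjusted p-values of their comparisons, none of which was used.

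Counts were tested with edgeR 4.0.16 in R 4.3.3 (TMM, filterByExpr with a minimum count of 10 and a minimum total of 15, quasi-likelihood test, Benjamini-Hochberg adjustment over all genes tested, threshold 0.05), each fit holding only the groups compared. After the filter 10826 genes were left for responders and non-responders, 10844 for later OCA and vehicle mice, 10785 for responders and vehicle, and 10832 for non-responders and vehicle. Log2 CPM used a prior count of 2. DESeq2 1.42.0 and limma 3.58.1 (pseudocounts of 1 and 0.1) were alternatives, beside RLE size factors, Rn45s left out of library sizes or its share as a covariate, other filters, 1 fit over all biopsies, a block on replicate numbers and each replicate left out. Pairs of markers were tested over 100000 permutations, two-sided. Tested on simulated counts with 200 changed genes, edgeR found 30% of the genes with a 2-fold change and 79% of those with a 4-fold change for responders against non-responders (10806 genes, 7 false calls).

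Replicates are single mice, so the spread is between mice. The chance agreement of replicate numbers was checked: deviations of same-numbered biopsies correlated at -0.07 to 0.05, so the numbers do not pair them. Positions come from GENCODE M21 on GRCm38, of which mm10 is another name. Genes named were the 10 markers, up to 4 genes of each list with the smallest p in responders against non-responders and in later OCA mice against vehicle, list genes past the threshold, the 5 genes most and the 5 least like the balance, and Rn45s. Some listed genes are not reported here. The markers and lists were chosen with earlier results of these data known.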

Additional observations from a re-analysis of the deposited data

Results flagged for a closer look

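Among 22 tests of a single biopsy against the rest of its set, 2 stood apart, while chance alone gives about 1 in 20. The sets were the non-responders and all later OCA mice, which share biopsies, so the tests are not independent. The vehicle and responder groups, with 3 biopsies each, were not tested on their own, so vehicle replicate 1 was not covered. Gls2 in non-responder replicate 4 was at 236 CPM, and the nearest non-responder was at 442 CPM, a gap of 0.904 of the range of the 4 biopsies. Cyp1a2 in responder replicate 1 was at 52.8 CPM among the 7 biopsies of later OCA mice, where the nearest was at 35.7 CPM, a gap of 0.577 of the range.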

How the results depend on the processing

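The 10 markers in 4 comparisons gave 40 log2 fold changes, recomputed 740 times under the alternatives. In 679 the direction and the side of the threshold stayed as reported, 16 of the 40 log2 fold changes never changed sign, and a marker passed the threshold only in the 2 fits of Cyp2f2 given above. Sign changes, in log2 units, concerned values that did not pass the threshold. With DESeq2 the sign turned for Slc1a2 (-0.00233) in non-responders against vehicle. With RLE size factors the sign turned for Slc1a2 (-0.000597) in non-responders against vehicle. With limma on the deposited log2 values the sign turned for Cyp2f2 (-0.00267) in responders against non-responders, Glul (-0.0249) in later OCA mice against vehicle, Glul (-0.0126) in responders against vehicle and Slc1a2 (-0.00149) in non-responders against vehicle. With limma on log2(FPKM + 0.1) without quantile normalization the sign turned for Glul (-0.15), Cyp2f2 (-0.16) in responders against non-responders, Glul (-0.23), Slc1a2 (-0.16) in later OCA mice against vehicle, Glul (-0.32), Slc1a2 (-0.13) in responders against vehicle and Slc1a2 (-0.18) in non-responders against vehicle. With limma on log2(FPKM + 1) without quantile normalization the sign turned for Glul (-0.15), Cyp2f2 (-0.16) in responders against non-responders, Glul (-0.23), Slc1a2 (-0.16) in later OCA mice against vehicle, Glul (-0.32), Slc1a2 (-0.13) in responders against vehicle and Slc1a2 (-0.18) in non-responders against vehicle. With Rn45s share (log2) as a covariate the sign turned for Gls2 (0.39), Cyp2f2 (-0.053) in responders against non-responders, Oat (-0.0341), Slc1a2 (-0.0168), Gls2 (0.47), Tbx3 (0.33), Tiparp (-0.75), Igfbp1 (-0.91), Pck1 (-0.92) in later OCA mice against vehicle, Cyp2e1 (0.82), Sds (-0.057), Gls2 (0.24) in responders against vehicle and Glul (0.13), Oat (-0.0544), Hal (0.0371), Gls2 (0.65) in non-responders against vehicle. With replicate numbers as a block the sign turned for Sds (-0.10) in responders against non-responders, Ahr (0.0706) in later OCA mice against vehicle, Cyp2e1 (0.00291) in responders against vehicle and Glul (0.0362), Slc1a2 (-0.0326), Gls2 (0.0313) in non-responders against vehicle. With each replicate left out in turn, the sign turned in at least 1 fit, over the ranges given, for Gls2 (-0.24 to 0.14), Sds (-0.0762 to 0.35), Cyp1a2 (-0.0612 to 0.46), Cyp2f2 (-0.0039 to 0.12) in responders against non-responders, Glul (-0.11 to 0.11), Cyp2e1 (-0.26 to 0.38), Cdh1 (-0.59 to 0.0423), Arnt (-0.19 to 0.0257), Ahr (-0.29 to 0.38), Tiparp (-0.0102 to 1.25) in later OCA mice against vehicle, Glul (-0.0754 to 0.14), Cyp2e1 (-0.54 to 0.10), Hal (-0.37 to 0.00634) in responders against vehicle and Cyp2e1 (-0.0733 to 0.56), Slc1a2 (-0.0886 to 0.14), Cdh1 (-0.42 to 0.21), Glul (-0.13 to 0.0914), Gls2 (-0.24 to 0.0293) in non-responders against vehicle. The cause of these changes was not tested.

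Counts of genes called moved more than the markers. DESeq2 called 268 genes in responders against non-responders, 666 in later OCA mice against vehicle, 1555 in responders against vehicle and 382 in non-responders against vehicle. For the last 3 comparisons in that order, a fit of all 10 biopsies called 326, 928 and 11, and the Rn45s covariate left 0 in each. With the replicate block the counts were 0, 74 and 0, beside 0 in responders against non-responders, and it changed no call of a marker. Limma called 262 genes in later OCA mice against vehicle and 16 in non-responders against vehicle on the deposited values. Without quantile normalization it called 390 with a pseudocount of 1 and 11 with 0.1 in later OCA mice against vehicle, and 1993 and 1509 in responders against vehicle. With each replicate left out the counts were 0 to 1 in responders against non-responders, 1 to 158 in later OCA mice against vehicle, 0 to 848 in responders against vehicle and 2 to 8 in non-responders against vehicle. For the balance, scaling each marker to unit SD gave differences from vehicle of 1.27 in later OCA mice, 1.49 in responders and 1.10 in non-responders. These are in SD units and cannot be set beside the log2 differences. The other zonated genes gave -0.30, -0.40 and -0.22 in log2 units. With each replicate left out, the log2 differences of the unscaled markers from vehicle were 0.08 to 0.60, 0.12 to 0.63 and 0.06 to 0.57. That of responders against non-responders was -0.09 to 0.21. Counting error was at most 0.08 on the log2 scale, beside a within-group SD of 0.12 to 0.60 for the markers.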
